A study of Zea mays with 6 samples.

Results

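The homeobox genes kn1, wox2a, wox9c and WUSCHEL-related homeobox 6, grouped here as embryo meristem genes, were followed in RNA of WT and shrek1 mutant kernels. The grouping rests on their names and families, and where in the kernel each was expressed was not tested. The first belongs to the KNOX family and the other 3 to the WOX family. They were chosen by their gene names, and all 4 were found among the 49785 genes of the deposited table and passed the filter on low counts, which kept 22681 genes. The 6 libraries were made from maize (Zea mays) kernels taken 13 days after pollination, 3 labelled wild-type (here WT) and 3 labelled Shrek1-/- (here shrek1). Plants for both groups were field-grown, and the pericarp was peeled off before RNA was extracted, so a library holds embryo and endosperm RNA together. Inbred background, the parents of the kernels, the number of ears or plants behind a replicate and the gene mutated in shrek1 are not stated in the labels, so no check of the genotypes on that gene was made. The p-values below measure the spread between these libraries, which may be technical.

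KNOX proteins are homeodomain transcription factors that keep cells of the shoot meristem undetermined, and kn1 is the founding member of the family in plants. In the maize embryo kn1 RNA marks the forming shoot meristem and is absent from leaf founder cells. WOX proteins are plant homeodomain factors related to WUSCHEL of Arabidopsis, the organiser of the shoot stem cells. In Arabidopsis WOX2 acts in the apical part of the young embryo and WOX8 and WOX9 in its basal part, and maize wox2a and the wox9 genes take their names from these relatives.

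Of the 4 genes, 3 fell in shrek1 kernels and 1 rose, in a comparison in which 64.4% of all tested genes passed the threshold, 32.0% higher and 32.4% lower in shrek1. RNA of kn1 was about 12.2-fold lower by the fitted ratio and that of wox9c about 5.37-fold lower. WUSCHEL-related homeobox 6 was well counted in WT and had 1 read in all shrek1 libraries together. RNA of wox2a was 1.85-fold higher in shrek1. All values are relative to the total of each library and give no amount of RNA per kernel or embryo.

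For kn1 (LOC542391, chromosome 1, 277841315 to 277849058, minus strand), the WT libraries held 79, 114 and 80 reads and the shrek1 libraries 6, 4 and 9. In CPM (reads per 1000000 reads of a library, scaled with TMM factors that correct for differences in composition), the WT libraries stood at 4.37, 5.71 and 3.77 and the shrek1 libraries at 0.347, 0.247 and 0.514. Every WT library was above every shrek1 library, and the lowest WT value was over that of the highest shrek1 library by more than the whole spread within WT. The means were 4.62 ± 0.991 and 0.370 ± 0.135 CPM (SD, n = 3 each). The log2 fold change was -3.61 ± 0.36 (SE), with adjusted p = 9.94e-06 by the quasi-likelihood test of edgeR, adjusted over all tested genes after Benjamini and Hochberg. The shrek1 values stood above the 0.171 to 0.185 CPM to which 3 reads correspond in those libraries, so kn1 RNA was low there but still counted.

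For wox2a (LOC103651027, chromosome 3, 186157904 to 186160792, plus strand), the WT libraries held 530, 457 and 605 reads and the shrek1 libraries 790, 887 and 860. The WT libraries stood at 29.3, 22.9 and 28.5 CPM and the shrek1 libraries at 45.7, 54.8 and 49.1 CPM, with no overlap. The means were 26.9 ± 3.52 and 49.9 ± 4.60 CPM, and the log2 fold change was 0.89 ± 0.12 (SE) with adjusted p = 8.9e-05 by the edgeR test. The gene described in the deposited table as WUSCHEL-related homeobox 5 after its rice relative is wox2a in the reference table.

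For wox9c (LOC103630735, chromosome 6, 176084311 to 176089055, plus strand), the WT libraries held 34, 23 and 51 reads and the shrek1 libraries 6, 3 and 8. In CPM the WT libraries stood at 1.88, 1.15 and 2.41 and the shrek1 libraries at 0.347, 0.185 and 0.457. The genotypes did not overlap, although WT values differed among themselves by more than those of the other members in proportion. The means were 1.81 ± 0.630 and 0.330 ± 0.137 CPM, and the log2 fold change was -2.43 ± 0.48 (SE) with adjusted p = 0.00118 by the edgeR test.

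WUSCHEL-related homeobox 6 (LOC103634590, chromosome 1, 53038334 to 53042020, minus strand), named after rice OsWOX6, had 267, 336 and 401 reads in the WT libraries. The shrek1 libraries had 0, 0 and 1. In WT this was 14.8, 16.8 and 18.9 CPM, or 16.8 ± 2.06 (SD, n = 3), with no overlap between the genotypes. A ratio of the normalised totals put WT 864-fold above shrek1, with an exact 95% counting interval of 155 to 34149. The interval covers counting error only, and reads carry no molecular identifiers. The edgeR test gave adjusted p = 6.61e-08.

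**Figure D1:**
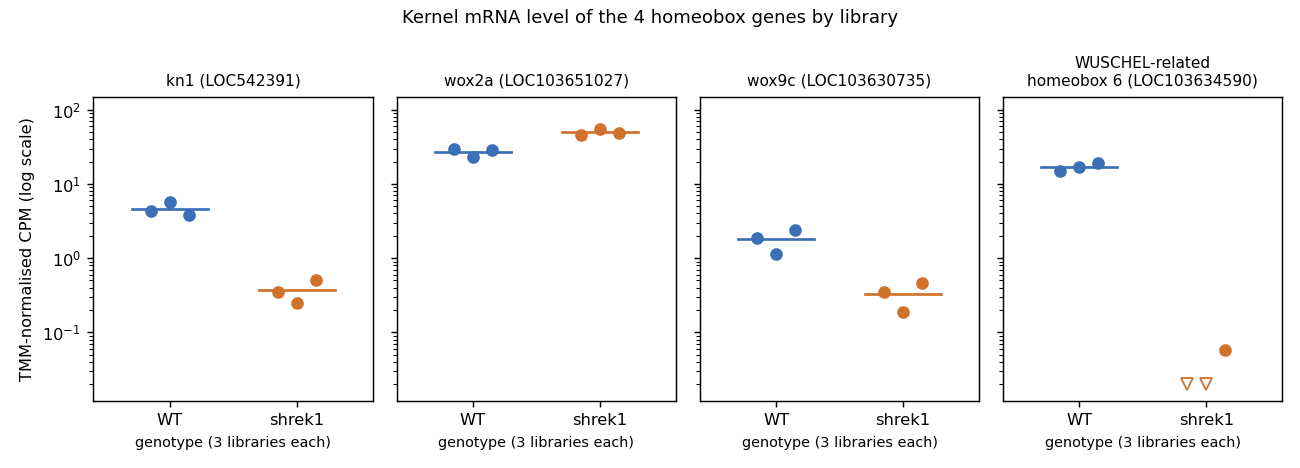
TMM-normalised CPM (log axis) of each gene in the 3 WT and 3 shrek1 libraries; points are libraries, horizontal lines are means where every library had a read, and open triangles at the bottom mark libraries with 0 reads. The wox2a points of shrek1 (45.7 to 54.8) lie above those of WT, and the points of the other 3 genes lie below.

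In the whole comparison most genes differed. Beside the 64.4% of tested genes that passed at adjusted p under 0.05, 70.0% had groups whose CPM did not overlap. With library size as the only scaling the calls were 4994 higher and 9682 lower, in place of 7264 and 7345, and the median log2 fold change of all tested genes moved from -0.01 to -0.30. That 4 of 4 members passed and did not overlap is therefore to be read against a high background. In size, the fold change of kn1 was above that of 4.57% of tested genes, that of wox9c above 7.94%, that of WUSCHEL-related homeobox 6 above 0.137% and that of wox2a above 82.8%. Library totals were 17145006 to 20288565 reads, with TMM factors of 1.06 to 1.16 for WT and of 0.864 to 0.936 for shrek1.

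**Figure D2:**
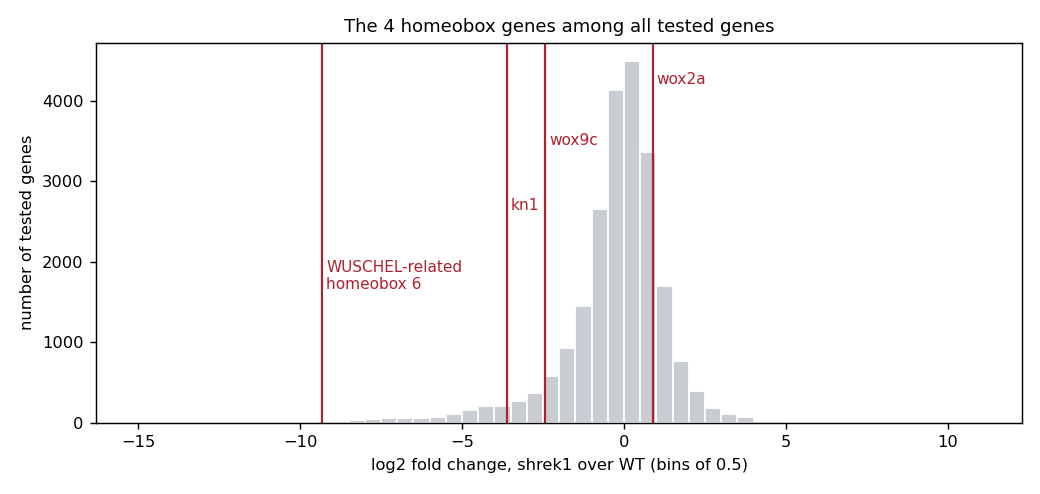
Number of tested genes (vertical axis) by log2 fold change of shrek1 over WT in bins of 0.5, with red lines at the 4 homeobox genes. Fold changes of kn1 (-3.61) and wox9c (-2.43) lie in the lower tail and WUSCHEL-related homeobox 6 (-9.32) near its end, and wox2a (0.89) lies on the right shoulder.

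Per gene length the order of the 4 genes changed with genotype. Deposited FPKM are reads per kilobase of gene, scaled in proportion to the size factors of DESeq2. By this measure WT levels were 20.6 ± 2.34 for wox2a, 9.55 ± 1.29 for WUSCHEL-related homeobox 6, 2.77 ± 0.639 for kn1 and 0.775 ± 0.265 for wox9c (SD, n = 3 each). No neighbours in this order overlapped between libraries. In shrek1 the levels were 37.6 ± 3.71 for wox2a, 0.216 ± 0.0774 for kn1 and 0.138 ± 0.0564 for wox9c. WUSCHEL-related homeobox 6 was at 0, 0 and 0.0315 FPKM. The ranges of kn1 (0.146 to 0.2996) and wox9c (0.0786 to 0.191) overlapped in shrek1, so these neighbours were not separated beyond their spread, while wox2a remained far above both. 

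Counts were also set against each other within a library, which needs no scaling between libraries. There were 6.71, 4.01 and 7.56 wox2a reads per kn1 read in the WT libraries and 132, 222 and 95.6 in shrek1. There were 0.430, 0.202 and 0.638 wox9c reads per kn1 read in WT and 1, 0.75 and 0.889 in shrek1. For WUSCHEL-related homeobox 6 the ratio was 3.38, 2.95 and 5.01 in WT and 0, 0 and 0.111 in shrek1. None of these 3 ratios overlapped between the genotypes. The shift was smallest for wox9c per kn1, at a log2 difference of 1.203 beside a pooled SD of 0.603, and from 0.75 to 1.57 with 1 library left out. The exact permutation test (two-sided) gave p = 0.1 for each, which is the lowest p that 6 libraries in 2 groups of 3 can reach, and with 0 to 9 reads of kn1, wox9c or WUSCHEL-related homeobox 6 behind the shrek1 values their size is imprecise.

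RNA of other embryo genes was also lower in shrek1. The embryo markers were genes described as oleosins, which coat oil bodies, or as vicilins, a class of storage globulin, with the globulin genes glb1 and glb2 and the seed regulators vp1 and lec1. Of 24 genes on the list 15 were tested, 14 fell, beside 32.4% of all tested genes, and 0 rose (0 at an unadjusted p under 0.05 and 0 by DESeq2), with a median log2 fold change of -5.68. One listed gene, LOC541815, encodes a hemoglobin that shares the synonym GLB1, and it did not pass. Together they held 1.13 to 1.41% of all reads in WT and 0.0152 to 0.0176% in shrek1. Reads of glb2 numbered 10689 in WT and 0 in shrek1, at least 1012-fold lower against a floor of 3 reads per library, and those of lec1 numbered 87 and 3. Fewer embryo cells and less RNA per embryo cell cannot be told apart in these libraries, and the part of embryo RNA in the values of the 4 genes was not tested beyond the ratios that follow.

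Relative to the embryo markers of the same library, 3 of the 4 genes were higher in shrek1. Per 1000000 marker reads, kn1 had 407, 444 and 367 reads in WT and 1806, 1520 and 2746 in shrek1. For wox9c WT libraries had 175, 89.6 and 234 and shrek1 libraries 1806, 1140 and 2441. For wox2a, WT libraries had 2731, 1781 and 2778 and shrek1 libraries 237737, 337134 and 262355. WUSCHEL-related homeobox 6 had 1376, 1309 and 1841 in WT and 0, 0 and 305 in shrek1, so its fall was larger than that of the summed markers. All 4 ratios separated the genotypes, each with p = 0.1 by the same exact permutation test, also after Benjamini-Hochberg adjustment over the 8 ratios computed, that of wox2a to its relative given later included. The size depended on the markers, whose sum follows mainly storage and oil body genes. Of 3323, 2631 and 3278 marker reads in the shrek1 libraries, 1772, 1416 and 1519 were of the oleosin gene LOC542263. The log2 difference of shrek1 over WT for kn1 was 2.39 with all markers and 0.45 with vp1 and lec1 alone, seed regulators of which vp1 also acts in the aleurone. With vp1 and lec1 alone it was 1.66 for wox9c, 4.92 for wox2a and -4.60 for WUSCHEL-related homeobox 6. That pair is mostly vp1, with 6349 reads in WT and 342 in shrek1 beside 87 and 3 of lec1. Whether aleurone RNA added to the other embryo markers was not tested.

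**Figure D3:**
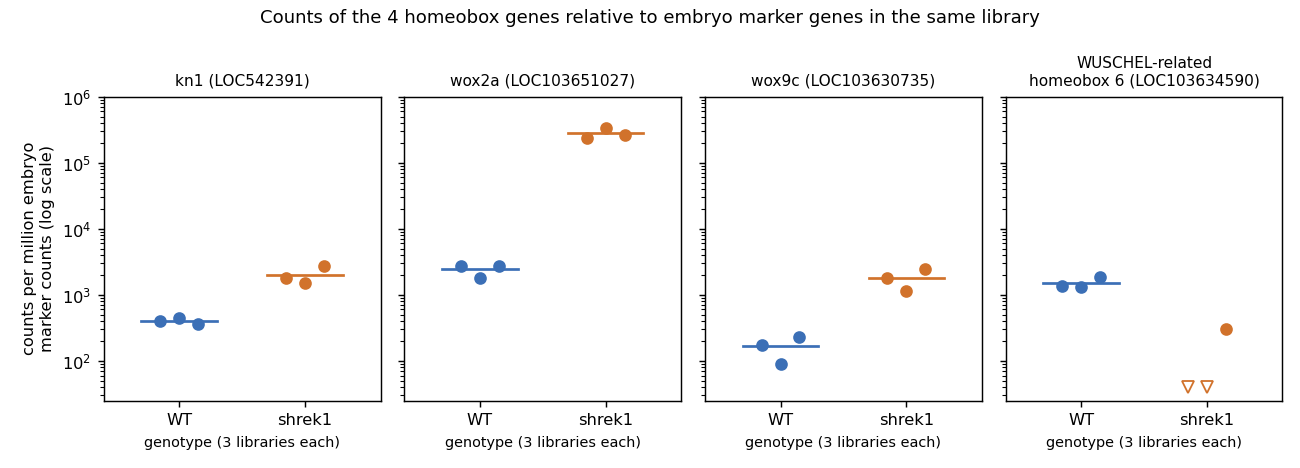
Reads of each gene per 1000000 embryo marker reads of the same library (log axis) in WT and shrek1; points are libraries, lines are means where every library had a read, and open triangles mark libraries with 0 reads. Points of kn1, wox9c and wox2a lie higher in shrek1 (for kn1 1520 to 2746 against 367 to 444), and those of WUSCHEL-related homeobox 6 lie lower.

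Markers of other kernel tissues were present in both genotypes. Starchy endosperm markers, mainly zein storage protein genes, held 16.1 to 20.3% of reads in WT and 5.54 to 7.28% in shrek1. The wording of that list also matched genes not described as zeins, such as myosin-binding protein 2 genes. Of 60 tested genes on the list 45 fell and 5 rose, beside 32.4% and 32.0% of all tested genes. Those that rose include the starch synthesis gene bt2 (1.12 ± 0.19, log2 fold change and SE) and the zein regulator o2 (1.07 ± 0.16). LOC100382517 (0.43 ± 0.14) and LOC100381475 (1.06 ± 0.23), not described as zeins, also rose. The starch synthesis gene sh2 rose too (0.47 ± 0.16), but did not pass with upper-quartile scaling (0.34), library size as the only scaling (0.19), the filter of 5 CPM (0.37) or without WT replicate 2 (0.42), WT replicate 3 (0.31) or shrek1 replicate 3 (0.42). Aleurone markers held 0.0404 to 0.0474% and 0.0776 to 0.0913%, and transfer layer markers 0.0183 to 0.0206% and 0.0234 to 0.0310%. Within the aleurone list 4 of 6 genes rose and 2 fell, where 64.4% of all tested genes passed in either direction. The genes that fell were the calpain gene dek1 and the receptor kinase gene cr4, both needed for aleurone fate, with log2 fold changes of -0.55 ± 0.10 and -0.73 ± 0.16 (SE), and dek1 did not pass with the offset for gene length (-0.21). The transfer layer sum was mostly LOC100382777, with 7295 reads in WT and 10866 in shrek1, and betl2 varied among the shrek1 libraries (364, 161 and 40 reads). Of 7 tested transfer layer genes 2 rose and 0 fell, beside 32.0% and 32.4% of all tested genes. By DESeq2, run on every gene with a read, 7 of the 27 such genes of that list rose and 0 fell, where 7064 of 33738 genes rose. Embryo-surrounding region markers had 41, 7 and 21 reads in WT and 87, 43 and 7 in shrek1. Which tissue the wox2a reads came from was not tested.

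The other tested genes of the WOX family fell or did not pass. The wording list held 27 genes, of which 25 carry a WUSCHEL-related homeobox annotation and the other two name a BRCA1-type protein. Of the 25, 17 had a read and 10 were tested, members included, of which 7 fell, wox2a alone rose and 2 did not pass. Without the 3 members 7 were tested, 5 fell, beside 32.4% of all tested genes, and 0 rose (0 at an unadjusted p under 0.05 by edgeR and 0 by DESeq2). Their median log2 fold change was -2.84 beside -0.01 over all tested genes. With the members and the BRCA1-type genes included, 2 rose and 7 fell among 11 tested.

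Close relatives of the 3 WOX members were measured too. LOC103636513 (chromosome 8), which like wox2a is annotated after rice OsWOX5, stood at 10.4 ± 0.646 CPM in WT and 8.74 ± 2.28 in shrek1 and did not pass (log2 fold change -0.25, adjusted p = 0.278 by the edgeR test). With library size as the only scaling it passed as lower, at -0.53. There were 3.01, 2.21 and 2.59 wox2a reads per LOC103636513 read in WT and 4.11, 6.43 and 7.48 in shrek1, which separated the genotypes (p = 0.1 by the exact permutation test). LOC101027107 (chromosome 9), annotated like the chromosome 1 member after rice OsWOX6, had 306, 367 and 383 reads in WT and 1, 2 and 8 in shrek1, a log2 fold change of -6.32 ± 0.34 (SE). LOC103651382 (chromosome 3), whose synonym is wox9B, stood at 3.22 ± 1.16 CPM in WT and 3.17 ± 0.944 in shrek1 and did not pass (log2 fold change -0.02 ± 0.34, adjusted p = 0.957 by the edgeR test). LOC103636156 (chromosome 8) has the synonyms wox9A and wox9b, so it shares the name wox9b with LOC103651382. Both are annotated after rice OsWOX7, whereas wox9c is annotated after rice OsWOX12. LOC103636156 had 8, 19 and 22 reads in WT and 2, 1 and 1 in shrek1, lower in every shrek1 library. It was below the filter on low counts and not tested. LOC101027107 and both wox9 relatives were picked with their values in view. The labels do not say how reads that match both copies of such a pair were counted, so the split of reads between near copies is uncertain. No other gene of the table overlapped any of the 4 members in position.

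Among the remaining WOX genes, LOC103651072 (chromosome 3), of the wox13 group, fell from 12.8 ± 0.744 to 5.59 ± 0.617 CPM, a log2 fold change of -1.19 ± 0.15. LOC103633577 (chromosome 7), annotated after rice WOX11, which promotes crown roots in rice, had 182, 201 and 167 reads in WT and 0, 0 and 1 in shrek1; it was chosen after its values were seen. Normalised totals were 473-fold higher in WT, with counting error (95%) allowing 84.6 to 18722. Genes of this family known from the shoot apex were near the limit of detection in both genotypes. The wus1 gene had 0 reads in WT and 5 in shrek1, wox4 had 7 and 0, and wus2 and the leaf-margin genes ns1 and ns2 had none in any library. A count of 0 allows up to 3 reads per library, so absence is not shown at this depth.

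Of the KNOX list, 40 of 45 genes carry a KNOX domain, 19 of these had a read and 11 were tested. Of the tested genes, kn1 among them, 8 fell, beside 32.4% of all tested genes, 0 rose and 3 did not pass, with a median log2 fold change of -2.44. Without kn1 it was 7 of 10, with a median of -2.17. At an unadjusted p under 0.05 by edgeR, 0 KNOX genes were higher, and 0 were higher by DESeq2. Among the genes that fell were several known, as kn1 is, from dominant mutants with misshapen leaves. Beside kn1 these included lg3 (9.31 ± 1.14 to 1.70 ± 1.01 CPM), lg4 (6.13 ± 0.688 to 1.11 ± 0.526 CPM) and the gnarley gene. The gene lg4b, a copy of lg4, fell too, and like lg3, lg4 and the gnarley gene it was picked with its values in view.

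The gnarley gene (LOC100283277) had 58 reads in WT and 0 in shrek1, at least 5.58-fold lower. Genes of the second KNOX class, which is expressed more widely than the meristem, included knox6 (LOC100383874) at 12.6 ± 0.680 and 10.8 ± 0.880 CPM and knox7 (LOC732756) at 8.27 ± 1.23 and 9.76 ± 1.48 CPM, and neither passed. The value of knox7 turned from 0.24 to -0.05 with library size as the only scaling, and knox6 passed as lower with that scaling (-0.50), with upper-quartile scaling (-0.35), with the filter of 5 CPM (-0.33) and with the offset for gene length (-0.38). The KNOX gene with the highest mean CPM, described as knotted-1-like 11 (LOC103638717, chromosome 9), fell from 34.2 ± 4.57 to 16.7 ± 3.25 CPM. LOC100284049, described as homeobox protein HD1 and picked with its values in view, fell from 7.76 ± 1.22 to 2.07 ± 0.253 CPM. Beyond knox6 and knox7 the KNOX genes were not sorted by class, so these genes alone do not show how the second class changed.

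BELL proteins are homeodomain partners that bind KNOX proteins. Of 7 tested BELL genes 4 fell, 1 rose and 2 did not pass, with a median log2 fold change of -1.198. Among all tested genes 32.4% fell and 32.0% rose. In either direction 64.4% of all tested genes passed, and by that measure the BELL count is near the background. By the same measure so is the KNOX count, 8 of 11, so the lists are not set apart by it. The gene described as BLH14 (LOC100272551) fell from 5.88 ± 1.10 to 0.0780 ± 0.0315 CPM, LOC100281572 from 4.94 ± 0.660 to 2.27 ± 0.641 CPM and LOC100382470 from 2.85 ± 1.08 to 0.939 ± 0.1498 CPM. LOC100281788 rose from 0.897 ± 0.0463 to 2.06 ± 0.338 CPM. Without WT replicate 1, 2 BELL genes rose.

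**Figure D4:**
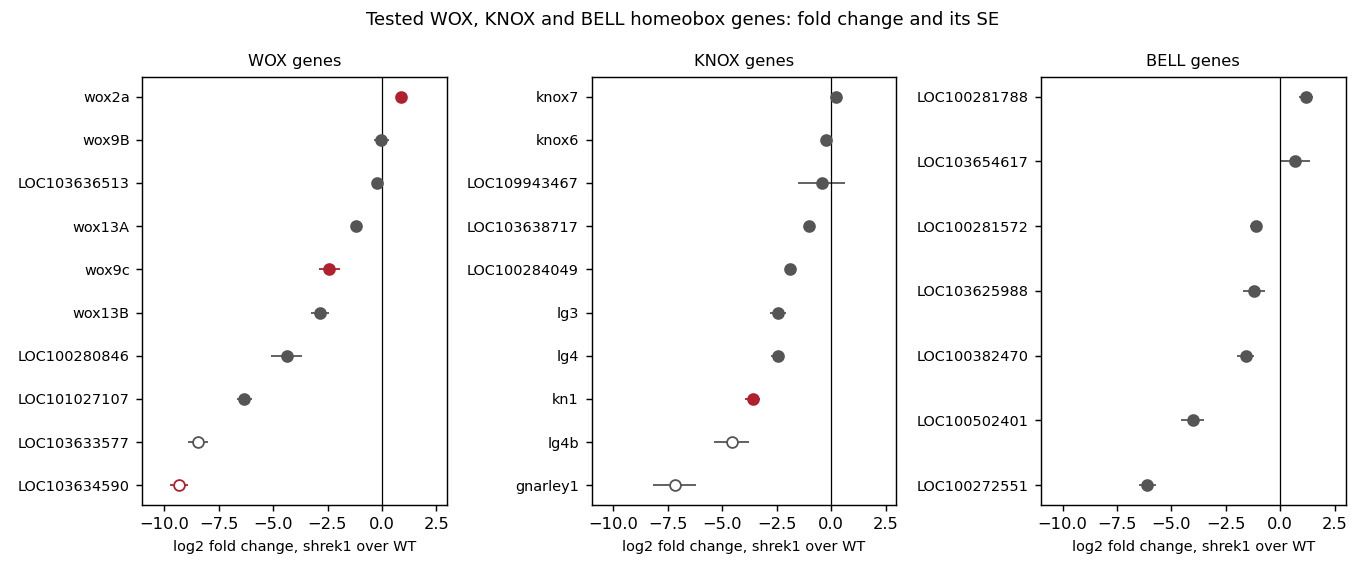
Log2 fold change of shrek1 over WT (horizontal axis) of tested WOX, KNOX and BELL genes, 1 KNOX gene not drawn, each with its SE as a bar, the 4 members in red; open circles are genes with at most 3 reads in 1 genotype, whose fitted value depends on the prior count. Among WOX genes wox2a (0.89) lies right of 0, wox9B (-0.02) at 0 and the other 8 genes to the left, of which LOC103636513 (-0.25) did not pass, and kn1 (-3.61) lies left of lg3 and lg4 in the KNOX panel.

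Genes of meristem signalling, leaf initiation and embryo patterning gave the wider setting. In the list of CLE peptide and CLAVATA-type genes, some of which limit meristem size, 3 of 10 tested genes fell. That is near the 32.4% of all tested genes that did. Of the 10, 0 rose (1, fea2, at an unadjusted p under 0.05, and 0 by DESeq2) and the median was 0.01. The tested genes include esr2, also an embryo-surrounding region marker here, and a gene described as inactive FON2 SPARE1. One of the 10 is LOC542230, a catalase gene with the synonym Ct2, which did not pass; without it 3 of 9 fell and the median was 0.03. The receptor gene fea3 fell from 37.0 ± 8.32 to 1.43 ± 0.215 CPM. The receptor gene fea2 (LOC542675) stood at 14.3 ± 1.46 and 18.0 ± 2.39 CPM and did not pass (adjusted p = 0.0586 by the edgeR test), but passed as higher without WT replicate 2 (0.40), without shrek1 replicate 3 (0.43) or with the offset for gene length (0.44). The G protein gene ct2, at 57.2 ± 9.54 and 64.7 ± 6.09 CPM, did not pass either. The other 2 genes that fell were the receptor kinase gene td1 (LOC103626458), at -2.70 ± 0.27, and a CLE25 peptide gene (LOC103644198), with 45 reads in WT and 2 in shrek1.

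YABBY genes act in lateral organs, and rs2 keeps KNOX genes off in leaf primordia. All 9 tested genes of this group fell, against 32.4% of all tested genes, with a median of -4.60, among them yab9 (LOC542130) from 14.8 ± 0.971 to 0.463 ± 0.350 CPM, yab10 (LOC542744) from 12.8 ± 2.42 to 0.0769 ± 0.0885 CPM and the YABBY gene LOC100272921 from 19.2 ± 1.197 to 1.18 ± 0.769 CPM. The YABBY gene LOC542129 had 250 reads in WT and 0 in shrek1, at least 23.9-fold lower. The gene rs2 (LOC542488), chosen after its values were seen, fell from 6.65 ± 0.488 to 1.18 ± 0.741 CPM. The list as worded held 29 tested genes, 7 higher and 13 lower, since its words also matched 20 tested genes outside the group. Of these, 14 have the LOB domain, with 4 higher and 2 lower, and the others include a proteasome subunit gene and a KH-domain gene described as interacting with rs2.

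The embryo patterning list was narrowed to genes with an AP2, homeobox, NAC or GRAS family annotation, which does not show a role in patterning. Of 20 tested genes 12 were lower and 4 higher, with a median of -1.60. Among all tested genes 32.4% were lower and 32.0% higher. By wording, which also took in transporters, 16 of 28 fell and 6 rose. The AP2-type gene LOC103631785, described as CRL5, fell from 87.4 ± 1.32 to 30.9 ± 0.955 CPM, LOC100384122 from 24.8 ± 2.43 to 1.05 ± 0.599 CPM, and the epidermal homeobox gene ocl1 (LOC542468) from 41.5 ± 8.85 to 4.62 ± 1.90 CPM. The AP2-type genes LOC100193057 and LOC100384463 rose, by log2 fold changes of 0.60 ± 0.12 and 1.28 ± 0.22. 

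Gibberellin oxidases make or inactivate the hormone gibberellin, and in maize KN1 protein binds a gene of the inactivating kind. By annotation 4 of 8 tested genes fell and 3 rose, with a median of -0.94, and by wording 5 of 10 fell and 4 rose, where 64.4% of all tested genes passed in either direction. Among genes for 20-oxidases, which make the hormone, 3 fell and 1 rose. LOC100276935 fell from 12.8 ± 3.46 to 0.116 ± 0.201 CPM and LOC107521947 from 9.55 ± 0.176 to 0.431 ± 0.129 CPM, and LOC100217010 had 1 read in WT and 53 in shrek1, or 61.6-fold more in shrek1, with counting error (95%) allowing 10.6 to 2479. Of 5 tested genes described as 2-oxidases or 2-beta-dioxygenases, which inactivate it, 2 rose, 2 fell and 1 did not pass. LOC100280480, whose annotation lacks the oxygenase domain by which the list was narrowed, fell from 26.5 ± 11.4 to 6.27 ± 1.19 CPM. LOC103627438 rose from 0.554 ± 0.353 to 7.77 ± 1.84 CPM and LOC103636636 from 0.151 ± 0.0455 to 0.972 ± 0.348 CPM. These 3 genes were chosen after their values were seen. LOC100285694 stood at 18.8 ± 3.88 and 29.8 ± 14.8 CPM and did not pass, but passed as higher without shrek1 replicate 2 (0.93), and LOC100192514 had 72 reads in WT and 0 in shrek1, at least 6.75-fold lower.

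**Figure D5:**
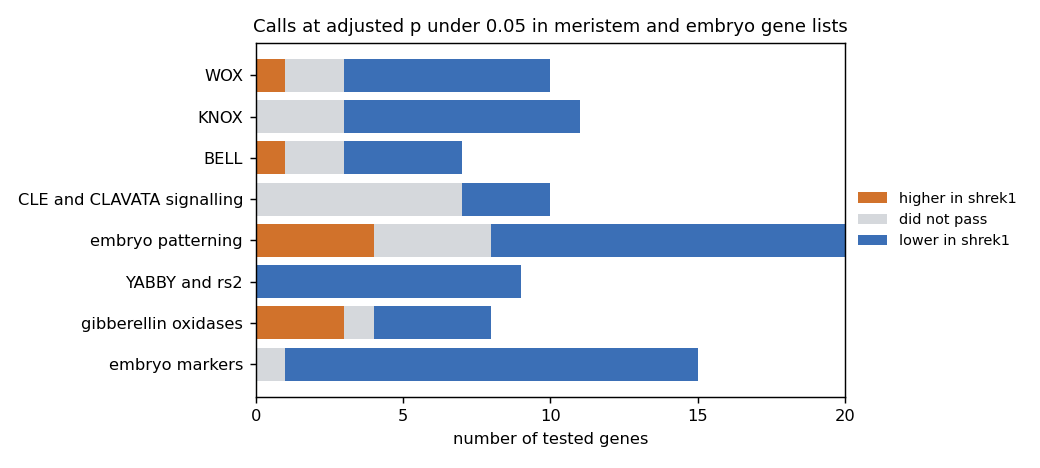
Number of tested genes (horizontal axis) that were higher in shrek1, lower in shrek1 or did not pass at adjusted p under 0.05 by the edgeR test, for each gene list by annotation or, for the CLE list (a catalase gene included) and the embryo marker list, by wording. No KNOX, YABBY or embryo marker gene was higher, and the WOX bar holds 1 higher gene, wox2a.

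The genes whose profile over the 6 libraries was most like that of kn1, by Pearson correlation of log2 CPM, were LOC103654892 (0.999), gpm300 (0.999), the receptor kinase gene LOC103643259 (0.999), the RING finger gene LOC100216604 (0.999) and LOC100284338 (0.999). The points share the 2 genotypes, and 3179 tested genes were above 0.95, so a high value mostly reflects a difference between WT and shrek1. These genes differed in size of change, from -1.10 for LOC100216604 to -4.53 for LOC100284338 on the log2 scale.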

How the data were processed

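RNA of 3 WT and 3 shrek1 kernel libraries was sequenced after preparation with a directional kit, per the labels' protocols. The submitters' processing notes name HISAT2 2.0.5 and featureCounts 1.5.0-p3 without role or strand setting. Deposited values are raw counts, not normalized by the authors, and FPKM. The deposited FPKM equal the counts divided by gene length and by a library size in proportion to DESeq2's size factors (largest deviation of 1 value 1.8e-07%). Coordinates are those of the deposited table, whose build is not named. Symbols and chromosomes come from RefSeq's gene table (Zm-B73-REFERENCE-NAM-5.0), where 49738 of 49785 genes were found.

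Counts were filtered with filterByExpr, scaled by TMM and compared with edgeR 4.0.16 (R 4.3.3; quasi-likelihood test, robust, two-sided, Benjamini-Hochberg over 22681 genes, threshold 0.05). SE values were derived from the fold change and F and are approximate. Ratios within libraries were compared on log2 of counts plus 0.5. A count of 0 allows up to 3 reads per library. Alternatives used DESeq2 1.42.0 and limma 3.58.1, and the fit was tested on simulated data.

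The members and 12 gene lists were chosen with earlier results of these data known, and annotation-based versions of 6 lists after values were seen. Named in each list are the 3 tested genes of highest mean CPM and the genes with the largest called rise and fall, with exceptions stated. One KNOX gene is counted with its list but not reported here singly.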

Additional observations from a re-analysis of the deposited data

How the results depend on the processing

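All 4 members kept their direction and their side of the threshold under every alternative that tested them. The log2 fold change was -3.91 to -1.62 for kn1, 0.60 to 0.96 for wox2a, -2.72 to -0.63 for wox9c and -11.28 to -3.38 for WUSCHEL-related homeobox 6, and the largest adjusted p over edgeR, DESeq2 and limma fits was 0.00619. The values nearest 0 of the genes that fell came from limma-trend on log2(FPKM + 1), where the pseudocount shrinks low genes. kn1 and wox9c were below the filter of 5 CPM and have no value there. Leaving out 1 library at a time gave -3.91 to -3.39 for kn1, 0.78 to 0.96 for wox2a, -2.72 to -2.15 for wox9c and -11.28 to -8.85 for WUSCHEL-related homeobox 6, and 13516 to 14506 calls over all genes. With the filter of 5 CPM fewer genes were tested, and 4 WOX, 5 KNOX and 1 BELL genes were lower and 0 BELL genes higher. Leave-one-out gave 1 to 2 higher BELL genes. With vp1 and lec1 alone as embryo markers, the log2 difference of the ratio was 0.45 for kn1, 4.92 for wox2a, 1.66 for wox9c and -4.60 for WUSCHEL-related homeobox 6. With markers weighted equally it was 0.75, 4.18, 1.85 and -1.76; the cause was not tested. Computed as TPM, the WT levels were 4.17 for kn1, 31.3 for wox2a, 1.18 for wox9c and 14.5 for WUSCHEL-related homeobox 6, and wox2a in shrek1 was 46.7, from the different library scaling.

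Same-numbered libraries did not deviate together (correlations of 0.096, -0.0493 and 0.028), so the numbers are not taken as pairs. A replicate block gave 14348 calls in place of 14609 and changed no member's call (kn1 -3.59, wox2a 0.89, wox9c -2.44, WUSCHEL-related homeobox 6 -9.32). Depth limits kn1 and wox9c in shrek1, with 19 and 17 reads in all.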
